A study of Mus musculus with 8 samples.

Results

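The 10 genes described here encode enzymes of cholesterol synthesis, taken in the order in which their steps follow each other: Hmgcs1, Mvd, Idi1, Fdps, Fdft1, Sqle, Lss, Cyp51, Msmo1 and Dhcr7. They were chosen by name, with earlier results of these data known. Every probe set that the array annotation gives to one of them alone was used. This gave 13 probe sets, 4 for Fdps and 1 for each other gene, among 10833 probe sets that name 1 gene and 8251 genes so covered. Other enzymes of the pathway were treated as a separate list.

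The livers were profiled from total RNA with 8 oligonucleotide arrays (Affymetrix MG-U74Av2), 2 for each of 4 groups. All mice, of mixed FvB/n; Swiss Webster background, carried Ttr::Fv2E-PERK, the low-expressing transgenic line called #58, in which the transthyretin (Ttr) promoter drives a fusion of the stress kinase PERK to a dimerization domain. They were siblings of genotype Atf4+/+ or Atf4-/-, and Atf4 encodes the main transcription factor of the integrated stress response that PERK sets off. Livers of each genotype were either untreated (the series title calls the animals mock-injected) or treated with AP20187, the drug that joins the dimerization domains and so activates the kinase. Dose, time after injection, age and sex are not given in the labels used here, nor is it said whether replicate arrays stand for different mice. The p-values therefore measure the spread between these arrays, which may be technical. The array number only names a sample.

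Cholesterol is built from acetyl-CoA. Early enzymes make isoprenoid units, middle enzymes join them into squalene and close it into lanosterol, and late enzymes trim lanosterol to cholesterol. In liver most of these genes are controlled together by the transcription factor SREBP-2, which is released from the endoplasmic reticulum when membrane cholesterol falls and binds sterol regulatory elements (SRE) beside CCAAT boxes and GC boxes, the sites of NF-Y and Sp1.

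The promoters show how these motifs lie before the genes. RefSeq promoter windows on GRCm38.p6 were matched for 7 of the 10 genes, with 9 windows in all, and Fdps, Fdft1 and Sqle had none in the table used. In the 250 bases before each annotated start, 5 motifs were searched on both strands. The SRE core TCACNCCA was found in the windows of Hmgcs1 and Msmo1, 2 of 9 windows, against 3.67% of all 32851 windows. A wider form of it, TCACNNCA, which includes the first, was found for 4 genes, Hmgcs1, Cyp51, Msmo1 and Dhcr7, in 5 of 9 windows, against 11.4% of all windows. The CCAAT box, searched as ATTGG, was present in 7 of 9 windows, against 33.8% of all windows, and the GC box GGGCGG in 8 of 9, against 32.7%. Each of the 7 genes had both in at least 1 window, and Dhcr7 has 3 windows. The core of the element bound by ATF4 with C/EBP partners, searched as TGATGNAA, was found in 1 of 9 windows, that of Idi1, against 3.45% of all windows. A match is a description of the letters and not a mapped binding site. Of the 4 windows below, those of Hmgcs1, Cyp51 and Msmo1 hold the SRE-like letters and that of Idi1 holds none. They are printed in the direction of transcription, with matches to TCACNNCA and to the CCAAT box in capitals. They lie at chr13:119690101-119690350 on the plus strand (Hmgcs1), chr13:8885356-8885605 on the plus strand (Idi1), chr5:4104698-4104947 on the minus strand (Cyp51) and chr8:64733579-64733828 on the minus strand (Msmo1).
Hmgcs1: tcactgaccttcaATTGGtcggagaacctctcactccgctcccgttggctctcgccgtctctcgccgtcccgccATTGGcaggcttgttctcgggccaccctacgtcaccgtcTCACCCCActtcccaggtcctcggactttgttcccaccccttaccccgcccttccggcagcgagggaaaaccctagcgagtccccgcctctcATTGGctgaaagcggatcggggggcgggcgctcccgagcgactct
Idi1: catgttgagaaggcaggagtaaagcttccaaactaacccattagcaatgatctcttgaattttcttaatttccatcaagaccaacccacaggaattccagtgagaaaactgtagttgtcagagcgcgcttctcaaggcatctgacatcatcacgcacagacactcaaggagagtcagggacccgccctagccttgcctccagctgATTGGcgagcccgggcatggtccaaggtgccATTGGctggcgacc
Cyp51: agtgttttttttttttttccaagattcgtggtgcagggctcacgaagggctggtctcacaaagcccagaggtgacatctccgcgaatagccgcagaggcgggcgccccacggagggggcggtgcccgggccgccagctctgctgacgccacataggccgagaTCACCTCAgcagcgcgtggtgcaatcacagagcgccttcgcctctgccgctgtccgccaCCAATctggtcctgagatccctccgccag
Msmo1: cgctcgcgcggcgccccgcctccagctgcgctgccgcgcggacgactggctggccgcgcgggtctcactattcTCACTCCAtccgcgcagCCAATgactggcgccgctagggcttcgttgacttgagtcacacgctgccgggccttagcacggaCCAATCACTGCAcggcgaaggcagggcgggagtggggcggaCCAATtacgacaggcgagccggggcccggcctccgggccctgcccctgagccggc
In the Hmgcs1 window the SRE-like letters start 137 bases before the annotated start, and CCAAT boxes start 237, 176 and 45 bases before that start. The Msmo1 window holds 2 wider matches, which start 177 and 92 bases before the start, and the nearer one shares its first base with a CCAAT box in the run of capitals. Cyp51 has 1 match that starts 88 bases before the start and 1 CCAAT box that starts 29 bases before it. Idi1 has 2 CCAAT boxes, which start 45 and 14 bases before the start.

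**Figure D1:**
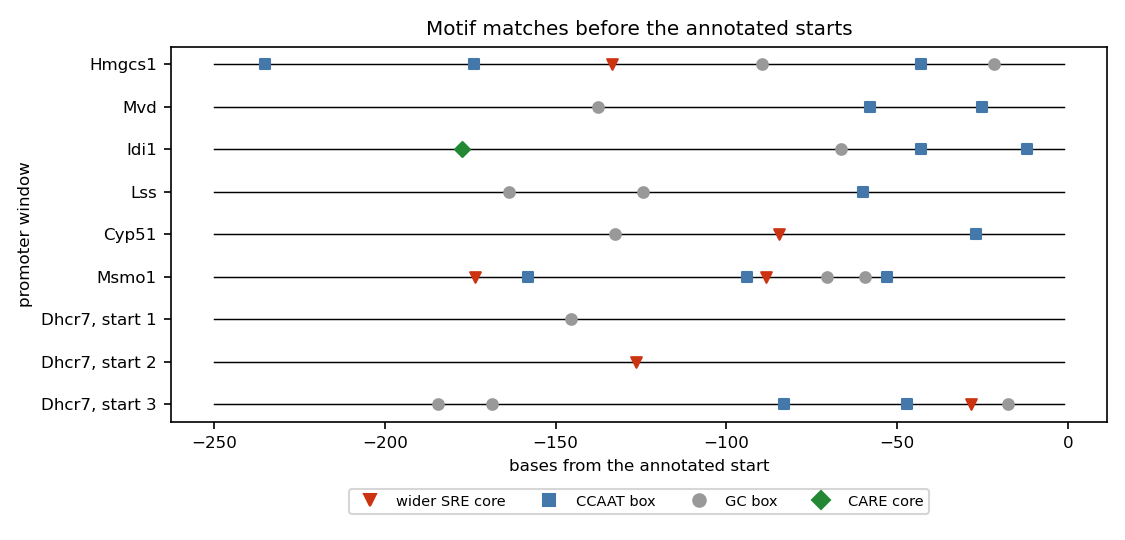
Positions of 4 kinds of motif match (symbols) in the 250 bases before each of the 9 annotated starts of 7 member genes; the horizontal axis is in bases from the start. CCAAT boxes lie in 7 of the 9 windows and wider SRE matches in 5, and 1 match to the ATF4 element core lies before Idi1.

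The deposited value of a probe set is a linear ratio, written in steps of 0.01, and for 85.8% of probe sets it is relative to their own median over the 8 arrays (median at least 0.99). A value of 1 is thus the middle of the 8 arrays, levels cannot be set against each other between genes, and brightness is unknown. Differences were computed on log2(ratio + 0.1) in limma and are given as log2 difference ± SE with the adjusted p over 12422 probe sets. Because the tissue is bulk liver, fewer cells of a type and less RNA per cell cannot be told apart.

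Some arrays stood against their labels or apart from the rest. Atf4 itself had ratios of 2.36 and 0.30 on the untreated Atf4+/+ arrays, 0.29 and 1.67 on the untreated Atf4-/- arrays, 4.17 and 5.75 on the treated Atf4+/+ arrays and 0.25 and 0.33 on the treated Atf4-/- arrays. The libraries labelled untreated Atf4+/+ array 2 and untreated Atf4-/- array 2 thus went against their genotype, and the labels of untreated Atf4-/- array 1 give both genotypes. Treated Atf4+/+ array 2 had the lowest ratio of 5′ to 3′ Actb control probe sets, -0.64 on the log2 scale against -0.19 on the next array. Gapdh did not set it apart in the same way, with -0.06 there and -0.05 on untreated Atf4+/+ array 1. Both are computed from deposited ratios, so they are relative to the other arrays. Median ratios of 12 hepatocyte marker probe sets lay between 0.85 and 1.23 on the 8 arrays, and since they are ratios they do not give the level of these markers. Treatment was visible in the direct readouts of the stress response: the median ratio of 9 probe sets of its target genes was 3.78 and 12.75 on the treated Atf4+/+ arrays, 1.58 and 1.31 on the treated Atf4-/- arrays and 0.23 to 0.42 on the untreated arrays.

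Taken as a pathway, the sterol enzymes had lower values with AP20187 in Atf4+/+ livers, and most of that difference lay in a pair of arrays. In Atf4+/+ 12 of 13 probe sets had a lower mean with the drug, with a median log2 difference of -1.28 against -0.06 over all 12422 probe sets. In Atf4-/- 9 of 13 were lower, with a median of -0.21 against -0.02 over all. No member passed the adjusted limma test in either genotype (lowest adjusted p 0.338 in Atf4+/+ and 0.738 in Atf4-/-). Untreated Atf4+/+ array 2 had the highest of the 8 ratios in 12 of 13 probe sets (median ratio 2.76), and treated Atf4+/+ array 2 the lowest in 9 of 13 (median ratio 0.47). The median ratio on each other array lay between 0.86 and 1.15.

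**Figure D2:**
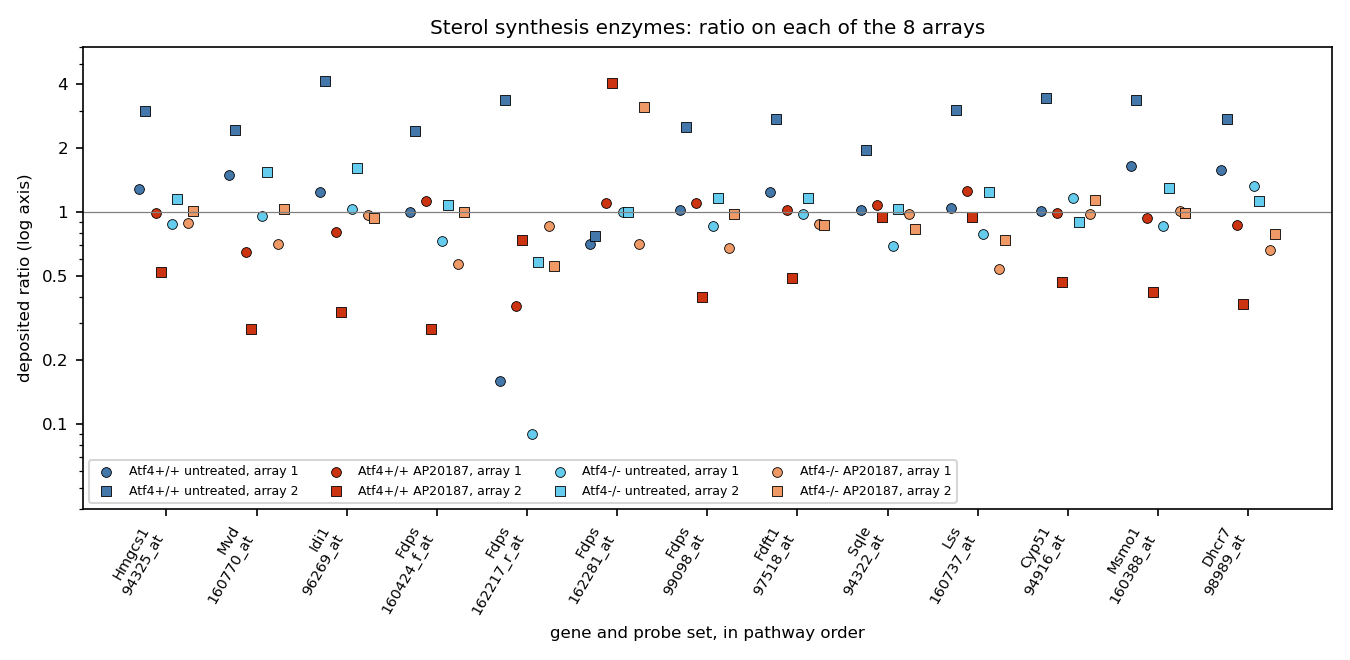
Deposited ratio (log axis) of each of the 13 probe sets, in pathway order, on each of the 8 arrays; colours give the group, circles array 1 and squares array 2. The dark blue squares (untreated Atf4+/+ array 2) are the highest points in 12 of 13 probe sets and the red squares (treated Atf4+/+ array 2) the lowest in 9 of 13.

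The early steps make the isoprenoid unit. Hmgcs1 (chr13:119690351-119708260, gene positions from RefSeq on GRCm38.p6), the cytosolic synthase of HMG-CoA, had ratios of 1.28 and 3.01 on the untreated Atf4+/+ arrays, 0.99 and 0.52 on the treated Atf4+/+ arrays, 0.88 and 1.15 on the untreated Atf4-/- arrays and 0.89 and 1.01 on the treated Atf4-/- arrays. Every treated Atf4+/+ array stood below every untreated one, while the Atf4-/- groups overlapped. The log2 difference was -1.33 ± 0.45 in Atf4+/+ (limma adjusted p = 0.492) and -0.08 ± 0.45 in Atf4-/-.

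Mvd (chr8:122433596-122443422) decarboxylates mevalonate diphosphate to isopentenyl diphosphate. Its ratios were 1.5 and 2.45 untreated and 0.65 and 0.28 treated in Atf4+/+, and 0.96 and 1.54 untreated and 0.71 and 1.04 treated in Atf4-/-. The Atf4+/+ groups did not overlap and the Atf4-/- groups did, with treated array 2 above untreated array 1. Mean ratios in Atf4+/+ were 1.98 ± 0.672 (SD, n = 2) untreated and 0.465 ± 0.262 (SD, n = 2) treated. Mvd had the lowest adjusted p of the members in Atf4+/+, with a log2 difference of -1.92 ± 0.44 (limma adjusted p = 0.338), against -0.46 ± 0.44 in Atf4-/-.

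Idi1 (chr13:8885606-8892396) interconverts the pair of isoprenoid units from which longer chains are made. It had ratios of 1.24 and 4.15 untreated and 0.81 and 0.34 treated in Atf4+/+, and 1.03 and 1.61 untreated and 0.97 and 0.94 treated in Atf4-/-. Its ratio of 4.15 was the highest of any member on untreated Atf4+/+ array 2. All 4 treated arrays lay below all 4 untreated arrays, though the gap between the lowest untreated and the highest treated value, 1.03 and 0.97, was small. The log2 difference was -1.92 ± 0.61 in Atf4+/+ (limma adjusted p = 0.465) and -0.40 ± 0.61 in Atf4-/-.

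The middle steps lead from isoprenoid units to lanosterol. Fdps (chr3:89093588-89101967) makes farnesyl diphosphate, the branch point to sterols, ubiquinone and prenylated proteins, and its 4 probe sets did not behave alike. The probe set 99098_at had ratios of 1.02 and 2.53 untreated and 1.11 and 0.40 treated in Atf4+/+, and 0.86 and 1.17 untreated and 0.68 and 0.98 treated in Atf4-/-. The probe set 160424_f_at followed it, with 1.0 and 2.42 untreated and 1.13 and 0.28 treated in Atf4+/+, and 0.73 and 1.08 untreated and 0.57 and 1.0 treated in Atf4-/-. In both, treated array 1 of Atf4+/+ lay above untreated array 1, so that the groups overlapped, and the lower mean came from array 2 of each group.
Another Fdps probe set, 162281_at, had its highest ratios on treated arrays, 4.07 on Atf4+/+ array 2 and 3.13 on Atf4-/- array 2, and between 0.71 and 1.10 on the other 6. The last, 162217_r_at, had a row median of 0.57, and ranged from 0.09 on untreated Atf4-/- array 1 to 3.38 on untreated Atf4+/+ array 2. The log2 differences in Atf4+/+ were -1.14 ± 0.56 for 99098_at, -1.28 ± 0.66 for 160424_f_at, 1.41 ± 0.78 for 162281_at and -0.61 ± 1.22 for 162217_r_at, and in Atf4-/- they were -0.27, -0.21, 0.56 and 1.15 in the same order and with the same SEs. The suffixes _f_at and _r_at mark probe sets that Affymetrix flagged in design as sharing probes with other sequences or as breaking its probe selection rules. The probe set 162281_at, which went the other way in Atf4+/+, carries neither suffix. No direction was drawn for Fdps as a gene, but its 4 probe sets count among the 13, whose Atf4+/+ median of -1.28 is the value of 160424_f_at.

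Fdft1 (chr14:63145150-63181687) is squalene synthase, the first enzyme whose product goes to sterols alone. It had ratios of 1.24 and 2.76 untreated and 1.02 and 0.49 treated in Atf4+/+, and 0.98 and 1.16 untreated and 0.88 and 0.87 treated in Atf4-/-. Treated arrays lay below untreated ones of the same genotype in both genotypes, but treated Atf4+/+ array 1 lay above untreated Atf4-/- array 1. The log2 difference was -1.27 ± 0.45 in Atf4+/+ (limma adjusted p = 0.506) and -0.26 ± 0.45 in Atf4-/-.

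Sqle and Lss showed the smallest differences in Atf4+/+ among the genes with 1 probe set. Sqle (chr15:59315092-59331193), the squalene epoxidase and a rate-limiting step of the pathway, had ratios of 1.02 and 1.97 untreated and 1.08 and 0.95 treated in Atf4+/+, and 0.69 and 1.04 untreated and 0.98 and 0.83 treated in Atf4-/-. Apart from untreated Atf4+/+ array 2 all its ratios lay between 0.69 and 1.08, and the groups overlapped in both genotypes. Its log2 difference was -0.45 ± 0.35 in Atf4+/+ and 0.08 ± 0.35 in Atf4-/-.

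Lss (chr10:76531565-76557139), which closes the epoxide into lanosterol, had ratios of 1.05 and 3.02 untreated and 1.26 and 0.95 treated in Atf4+/+, and 0.79 and 1.25 untreated and 0.54 and 0.74 treated in Atf4-/-. Its treated Atf4-/- arrays were the lowest of the 8, below both untreated arrays of that genotype and below both treated Atf4+/+ arrays, while the Atf4+/+ groups overlapped. The log2 differences were -0.66 ± 0.50 in Atf4+/+ and -0.58 ± 0.50 in Atf4-/- (limma adjusted p 0.993 for their difference of 0.08 ± 0.71). The Atf4+/+ value was 0.055 without untreated array 2 and -1.38 without untreated array 1, and the difference of effects ran from -0.64 to 0.80 with 1 array left out.

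The late steps trim lanosterol. Cyp51 (chr5:4080674-4104697), the cytochrome P450 that removes the first methyl group, had ratios of 1.01 and 3.46 untreated and 0.99 and 0.47 treated in Atf4+/+, and 1.17 and 0.90 untreated and 0.98 and 1.14 treated in Atf4-/-. The Atf4+/+ groups met almost at 1.01 and 0.99, so that their separation rested on array 2 of each group, and the Atf4-/- groups overlapped. The log2 difference was -1.33 ± 0.58 in Atf4+/+ and 0.04 ± 0.58 in Atf4-/-.

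Msmo1 (chr8:64718123-64733578) oxidises the next methyl groups. Its ratios were 1.65 and 3.36 untreated and 0.94 and 0.42 treated in Atf4+/+, and 0.86 and 1.30 untreated and 1.01 and 0.99 treated in Atf4-/-. In Atf4+/+ both untreated arrays lay above every other array of the series, and in Atf4-/- the treated values lay between the untreated ones. The log2 difference was -1.74 ± 0.46 in Atf4+/+ (limma adjusted p = 0.388) and -0.08 ± 0.46 in Atf4-/-. The difference between these effects, 1.67 ± 0.65, had an unadjusted limma p of 0.041 and an adjusted p of 0.907.

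Dhcr7 (chr7:143823167-143848410) carries out the final reduction to cholesterol. It had ratios of 1.58 and 2.75 untreated and 0.87 and 0.37 treated in Atf4+/+, and 1.33 and 1.13 untreated and 0.66 and 0.79 treated in Atf4-/-. All 4 treated arrays lay below all 4 untreated arrays, with a clear gap between 0.87 and 1.13, and Dhcr7 had the lowest mean difference of the 13 probe sets in Atf4-/-. The log2 difference was -1.70 ± 0.42 in Atf4+/+ (limma adjusted p = 0.363) and -0.69 ± 0.42 in Atf4-/-.

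**Figure D3:**
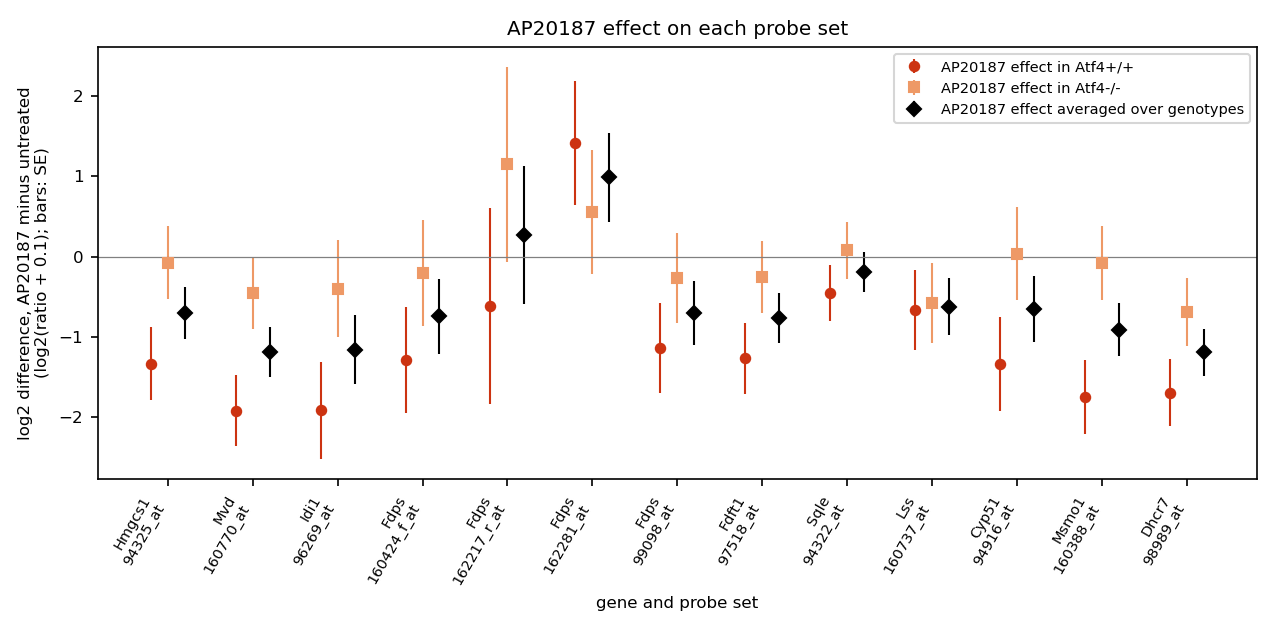
Log2 difference, AP20187 minus untreated, of each of the 13 probe sets on the log2(ratio + 0.1) scale, with SE bars, in Atf4+/+ (circles), in Atf4-/- (squares) and averaged over genotypes (diamonds). In Atf4+/+ 12 of 13 points lie below 0 and in Atf4-/- 9 of 13; no point passed the adjusted test.

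Set beside all probe sets, the counts in Atf4+/+ were as follows. With AP20187 0 of 13 members and 0.00805% of all probe sets passed the adjusted limma test in either direction. At an unadjusted p under 0.05, 6 of 13 members (46.2%) were lower, against 4.31% of all probe sets, and none was higher. Every treated array lay below every untreated one in 7 of 13 (53.8%), against 21.3% of all probe sets. These 7 were Hmgcs1, Mvd, Idi1, Fdft1, Cyp51, Msmo1 and Dhcr7, and the members share their arrays, so that they are not independent counts. The members were also chosen with earlier results of these data known, so these shares are a description.

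In Atf4-/- 0 of 13 members and 0% of all probe sets passed the adjusted test, and 0 of 13 members were lower at an unadjusted p under 0.05, against 3.16% of all. Treated arrays lay below untreated ones in 4 of 13 (30.8%), against 22.3% of all probe sets, which is near the background. The 4 were Idi1, Fdft1, Lss and Dhcr7.

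The AP20187 effect averaged over genotypes compares all 4 treated with all 4 untreated arrays. Its size does not depend on which genotype an array was given, while its SE and limma p do, since the spread is taken within the 4 groups. Its median over the members was -0.71 against -0.04 over all probe sets. It was called in 0 of 13 members and 0.0403% of all probe sets by the adjusted test. At an unadjusted p under 0.05, 5 of 13 members (38.5%) were lower, against 5.15% of all. Complete separation was found for Idi1 and Dhcr7, 2 of 13 (15.4%), against 3.78% of all.
Dhcr7 averaged -1.19 ± 0.30 (limma adjusted p = 0.279), Mvd -1.19 ± 0.31 (0.301), Idi1 -1.16 ± 0.43 (0.405), Msmo1 -0.91 ± 0.33 (0.394) and Fdft1 -0.76 ± 0.32 (0.442). In the exact two-sided permutation test of 4 against 4 arrays Idi1 and Dhcr7 reached 0.0286, the smallest p this design allows, with an exact adjusted p of 0.358 over all probe sets. Mvd and Fdft1 reached an exact p of 0.0571 and Msmo1 0.114.

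The effects of the drug in Atf4+/+ and Atf4-/- were compared directly. Of 13 members 12 had the higher difference in Atf4-/-, with a median of 1.08 against 0.04 over all probe sets. By the adjusted test 0 of 13 members and 0% of all probe sets differed, and at an unadjusted p under 0.05 only Msmo1, 1 of 13 (7.69%), was higher, against 2.73% of all. Mvd had a difference of 1.46 ± 0.63 (limma adjusted p = 0.921). Leaving out both Atf4+/+ arrays numbered 2 took the median to 0.06. The comparison uses the genotype labels as given. Untreated Atf4+/+ array 2, where the members were highest, and untreated Atf4-/- array 2 had Atf4 ratios against their labels (0.30 and 1.67).

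Genotypes were also compared within treatment. Without the drug 12 of 13 members were lower in Atf4-/- (median -0.75, against -0.01 over all), and 4 of 13 (30.8%), namely Hmgcs1, Fdft1, Msmo1 and Dhcr7, were separated, against 16.4% of all probe sets. The adjusted test called 0 of 13 members and 0% of all, and 0 of 13 were lower at an unadjusted p under 0.05, against 2.56% of all. Msmo1 had -1.09 ± 0.46 (limma adjusted p = 0.925). The median was -0.15 without untreated Atf4+/+ array 2, whose Atf4 ratio of 0.30 goes against its label, -1.35 without untreated Atf4+/+ array 1 and -0.49 without untreated Atf4-/- array 1, whose labels disagree. It was -0.37 without both untreated arrays that go against their label.
With the drug 10 of 13 members were higher in Atf4-/- (median 0.33, against 0.04 over all). This median turned to -0.056 without treated Atf4+/+ array 2 and was 0.81 without treated Atf4+/+ array 1. Separation upwards was found for Mvd, Idi1 and Msmo1, 3 of 13 (23.1%), against 19.2% of all probe sets. None of the 13 passed the adjusted test, nor did any other probe set (0%), and 0 of 13 were higher at an unadjusted p under 0.05, against 2.53% of all. Mvd stood at 0.85 ± 0.44 (limma adjusted p = 0.952), and Lss, which went the other way, at -0.70 ± 0.50 (0.956).

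How far these differences rest on single arrays was measured by leaving arrays out, a choice made for the last setting after seeing the data. In Atf4+/+ the members' median difference was -0.69 without untreated array 2 and -0.87 without treated array 2, and without both it was -0.03. It was -1.92 without untreated array 1 and -1.78 without treated array 1. Counts of members under a p threshold are not read as results for these settings, because a group then holds 1 array. How far they moved is given at the end only to show that they are unstable. In the 6 arrays left without both Atf4+/+ arrays numbered 2, only Idi1 and Dhcr7 kept every treated array below every untreated one, as 1133 of 12422 probe sets did. The averaged effect was then -0.74 for Dhcr7, -0.77 for Mvd and -0.48 for Idi1. It was 0.01 for Cyp51 and 0.08 for Sqle. The lowest of the 13 averaged differences were thus those of Mvd and Dhcr7. They are given as sizes only, because each Atf4+/+ group then holds 1 array and shows no spread of its own.

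**Figure D4:**
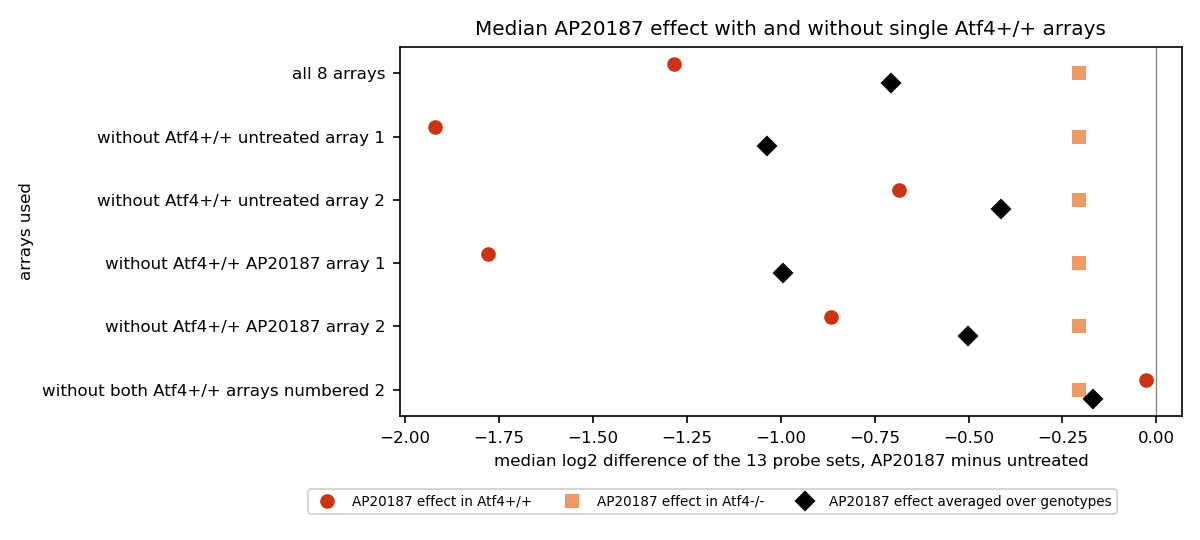
Median log2 difference (AP20187 minus untreated) of the 13 probe sets with all 8 arrays and with Atf4+/+ arrays left out, for Atf4+/+ (circles), Atf4-/- (squares) and the average over genotypes (diamonds). The Atf4+/+ median goes from -1.28 with all arrays to -0.03 without both arrays numbered 2.

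The members varied together over the arrays. Among the 9 genes with 1 probe set, the 36 pairwise Pearson correlations of log2 values over 8 arrays had a median of 0.90, from 0.52 (Mvd with Sqle) to 0.99 (Hmgcs1 with Fdft1). Over the 6 arrays without both Atf4+/+ arrays numbered 2 the median was 0.54 and the range -0.88 (Sqle with Cyp51) to 0.93 (Hmgcs1 with Msmo1). These correlations share their arrays and their scaling, and describe these 8 arrays only.

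Other enzymes of sterol synthesis shared part of this pattern. Of 12 such genes 8 were measured, by 14 probe sets, of which 13 were lower with the drug in Atf4+/+ (median -0.68) and 9 in Atf4-/- (median -0.13). None passed the adjusted test. At an unadjusted p under 0.05, 3 of the 14 were lower in Atf4+/+, against 4.31% of all probe sets. All 3 belong to 1 gene, Nsdhl, which works just after Msmo1 in removing methyl groups. Nsdhl had ratios of 2.69, 2.06 and 3.16 on untreated Atf4+/+ array 2 and 0.37, 0.60 and 0.42 on treated Atf4+/+ array 2 in its 3 probe sets. Hsd17b7, another late enzyme, had 1.99 and 0.55 on those arrays.
Mvk, which phosphorylates mevalonate between the steps of Hmgcs1 and Mvd, reached 17.15 (95632_f_at) and 3.20 (95633_r_at) on untreated Atf4+/+ array 2 and stood between 0.77 and 1.30 elsewhere. Both Mvk probe sets carry the suffixes flagged above for Fdps, and their values on that array were far apart. The late enzymes Tm7sf2 and Ebp were low on treated Atf4+/+ array 2 (0.39 and 0.55 in both Tm7sf2 probe sets, 0.52 for Ebp) but near the other arrays on untreated array 2 (1.15, 1.04 and 1.02). Their low values were therefore not accompanied by high ones.

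Fatty acid synthesis genes, which SREBP-1c drives in liver, had lower means with the drug in both genotypes. Of 15 probe sets of 10 genes 13 were lower in Atf4+/+ (median -0.61) and 15 in Atf4-/- (median -0.56), with 0 past the adjusted test. At an unadjusted p under 0.05, 2 were lower in each genotype, against 4.31% and 3.16% of all probe sets, and 54.9% and 51.9% of all probe sets had a lower mean. Fasn, the fatty acid synthase, had ratios of 2.29 and 1.58 untreated and 1.09 and 0.39 treated in Atf4+/+, and 0.91 and 2.49 untreated and 0.47 and 0.73 treated in Atf4-/-. Thrsp, a lipogenic regulator, averaged -1.37 ± 0.31 (limma adjusted p = 0.246) and Acly, which supplies cytosolic acetyl-CoA, -0.73 ± 0.17 (0.248). The arrays with the highest medians of this list were untreated Atf4-/- array 2 (1.82) and untreated Atf4+/+ array 1 (1.66), not untreated Atf4+/+ array 2 (1.12), where the sterol enzymes were highest. On treated Atf4+/+ array 2 both lists were lowest, 0.68 and 0.47. No test of the difference between the lists was made, and the lists were chosen with earlier results of these data known.

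**Figure D5:**
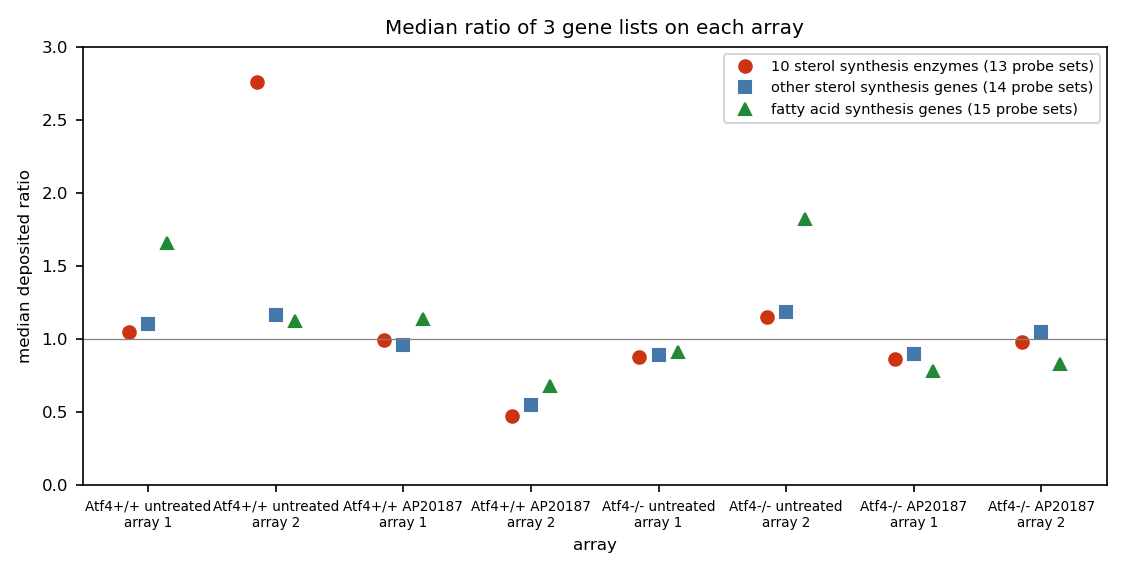
Median deposited ratio on each of the 8 arrays for the 13 probe sets of the 10 sterol synthesis enzymes (circles), 14 of other sterol synthesis genes (squares) and 15 of fatty acid synthesis genes (triangles). The circle of 2.76 on untreated Atf4+/+ array 2 stands far above the squares and triangles of that array (1.17 and 1.12).

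Regulators of sterol balance and uptake were mixed. Of 6 probe sets of 6 genes measured (of 13 listed), 4 were lower with the drug in Atf4+/+ and 2 in Atf4-/-. With 0 past the adjusted test, 1 of 6 was higher at an unadjusted p under 0.05 in Atf4+/+, against 4.78% of all probe sets. Insig1, which holds SREBP in the endoplasmic reticulum and is itself an SREBP target, had ratios of 0.54 and 0.66 untreated and 0.22 and 0.83 treated in Atf4+/+, and 0.93 and 0.36 untreated and 1.14 and 0.69 treated in Atf4-/-. It was thus not high on untreated Atf4+/+ array 2, and its row median was 0.68 rather than near 1. Srebf1, the gene of SREBP-1, stood at 0.93 on that array and had its lowest ratio, 0.41, on treated Atf4+/+ array 2. Npc1, which moves cholesterol out of lysosomes, was that higher gene, with 0.65 and 0.85 untreated and 1.97 and 4.06 treated in Atf4+/+, and 0.55 and 0.79 untreated and 1.15 and 1.23 treated in Atf4-/-. Its 4 treated values lay above its 4 untreated values, and its averaged difference was 1.28 ± 0.27 (limma adjusted p = 0.221). Cyp8b1, a bile acid synthesis enzyme downstream of cholesterol, had 1.0 and 1.64 untreated and 0.27 and 0.29 treated in Atf4+/+, and 1.16 and 1.09 untreated and 0.47 and 1.0 treated in Atf4-/-. Its differences were -1.86 ± 0.38 in Atf4+/+ (limma adjusted p = 0.266) and -0.63 ± 0.38 in Atf4-/- (0.733). It belongs to a list of sterol export and conversion genes, of whose 10 probe sets 7 were lower in Atf4+/+ (median -0.23) and 5 in Atf4-/- (median 0.01), with 0 past the adjusted test. Cyp8b1 was the only one of the 10 lower at an unadjusted p under 0.05 in Atf4+/+, against 4.31% of all probe sets. None was in Atf4-/-, against 3.16%.

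Other genes also stood apart on the arrays that set the sterol values. On untreated Atf4+/+ array 2 Dbp, a clock output gene, had a ratio of 5.37 and Arntl, a core clock gene whose peak opposes it, 0.20. On treated Atf4+/+ array 2, where the sterol enzymes were lowest, Dbp had its second highest ratio, 3.87, and Arntl 1.13, and on the other 6 arrays they lay between 0.27 and 1.42 and between 0.76 and 1.41. Such values were not confined to these arrays. Nr1d1, another clock gene, had 5.21 on untreated Atf4+/+ array 2 but also 4.09 on treated Atf4-/- array 1, where the members' median ratio was 0.86. On untreated Atf4+/+ array 2 the 17 probe sets of 14 clock genes (of 16 listed) had a median of 0.88, within the 0.73 to 1.13 of the 8 arrays. Because clock genes can move in opposite directions, as Dbp and Arntl did on that array, this median cannot show whether they were shifted. Sterol synthesis follows the day and feeding in mouse liver, as background, and the part of sampling time or RNA quality in these results was not tested. Without both untreated arrays that go against their Atf4 label, the members' median in Atf4+/+ was -0.69.

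Genes other than the 10 members were ranked by how closely their log2 ratios resembled the members' mean over the 8 arrays, among 7840 genes and by Pearson's r, as a description. Iars2 came first (r = 0.964, n = 8 arrays), then Dpp4 (0.961) and Siva1 (0.960), and all 3 had smaller swings, from 0.86 to 1.38 for Iars2, from 0.73 to 1.62 for Dpp4 and from 0.84 to 1.32 for Siva1. Of the first 10, Hsd17b7 (0.928) and Erg28 (0.920) belong to sterol synthesis, and Erg28, known from yeast as a scaffold of the enzymes that remove methyl groups, ran from 0.42 on treated to 1.95 on untreated Atf4+/+ array 2. The gene most opposed was Ppan (-0.962), which ran from 0.27 to 2.61 on the same pair of arrays. Over the 6 arrays without that pair, r was 0.90 for Iars2, 0.94 for Dpp4 and 0.86 for Siva1. It was 0.38 for Hsd17b7, 0.81 for Erg28 and -0.64 for Ppan.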

How the data were processed

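Values were used as the authors deposited them: linear ratios on 8 arrays of mouse liver RNA, in steps of 0.01. Their summary, scaling and divisor are not given in the sources used here. Per the labels, RNA was extracted and labelled with biotin. Groups were taken from source names and descriptions, and for untreated Atf4-/- array 1, where these differ, from the source name. After 66 control probe sets were left out, 12422 probe sets were fitted as log2(ratio + 0.1) in limma 3.58.1 (R 4.3.3), with 4 group means, 6 contrasts, eBayes (4 residual degrees of freedom), Benjamini-Hochberg adjustment within each contrast and a threshold of 0.05. The fit was tested on simulated data. Motifs were searched with Python 3.11.15, and figures drawn with matplotlib 3.10.9.

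The members and gene lists were chosen with earlier results of these data known. Named genes are the 10 members, Atf4, up to 6 genes per list with the smallest p, the genes most like the members' mean, and Nr1d1. Alternatives were other pseudocounts, scalings, filters and moderation, array weights, 1 value per gene, and arrays left out. No detection calls were used, so signal over background is unknown, and precision is limited by having 2 arrays a group.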

Additional observations from a re-analysis of the deposited data

Results flagged for a closer look

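Msmo1 on treated Atf4+/+ array 2 stood apart from the other 3 treated arrays: its ratio was 0.42 there and 0.94, 1.01 and 0.99 on the others. The gap to the nearest value was 0.914 of the whole range on the log2(ratio + 0.1) scale, above Dixon's 95% critical value for 4 samples. The 13 probe sets were tested over the 4 untreated and over the 4 treated arrays, 26 tests in all, and this was the only one past the value, where chance flags about 1 in 20. The 4 treated arrays hold both genotypes.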

How the results depend on the processing

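No paired analysis was possible because the array numbers were given in accession order and pair nothing. Of 693 recomputed single differences, 661 kept their direction and 32 changed sign. Many of the 661 could not change. A difference within 1 genotype keeps its value when arrays of the other genotype are left out. The same holds under robust moderation, and under array weights, which were equal within each group. Leaving out untreated Atf4-/- array 1 was also counted more than once, so the 661 overstate how stable the values are. Without both untreated arrays whose Atf4 ratio goes against the label, the members' median in Atf4+/+ was -0.69. Without both Atf4+/+ arrays numbered 2, a setting chosen after seeing the data, that median was -0.026. The medians of the difference of effects, the untreated and the treated genotype comparison were then 0.065, -0.15 and -0.056. The counts that follow are of member probe sets lower at an unadjusted limma p under 0.05. With 1 array left out, a group holds 1 array and shows no spread of its own. In Atf4+/+ the number over all 12422 probe sets moved as well. The counts therefore show only that this number is unstable, and nothing was concluded from them. Leaving out 1 array moved the Atf4+/+ median between -1.92 and -0.69 and its count between 3 and 11, the averaged count between 2 and 9, and the median difference of effects between 0.48 and 1.68, that of the untreated genotypes between -1.35 and -0.15 and of the treated between -0.056 and 0.81.

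Signs turned in Atf4+/+ for Fdps 162217_r_at (1.26) and Lss (0.055) without the arrays against their label, and for Fdps 160424_f_at (0.16), 162217_r_at (0.82) and 99098_at (0.11), Sqle (0.075) and Lss (0.24) without both arrays numbered 2. In Atf4-/- they turned for Hmgcs1 (0.10), Fdps 160424_f_at (0.049), Cyp51 (-0.13) and Msmo1 (0.20) without the arrays against their label, and for Sqle (-0.19) without the array of disputed label. The Lss difference of effects was -0.0017 with quantile normalization, -0.22 without the array of disputed label, -0.33 without those against their label and -0.82 without both arrays numbered 2. With 1 array left out, Atf4+/+ ran from -2.48 to 1.26 for Fdps 162217_r_at and from -1.38 to 0.055 for Lss. Atf4-/- ran from -0.25 to 0.10 for Hmgcs1, from -0.56 to 0.15 for Fdps 160424_f_at, from -0.44 to 1.55 for Fdps 162281_at, from -0.19 to 0.34 for Sqle, from -0.13 to 0.21 for Cyp51 and from -0.35 to 0.20 for Msmo1, and the Lss difference of effects from -0.64 to 0.80. Over all probe sets, 1 was called in Atf4+/+ and 5 in the averaged effect, against 2 and 12 with quantile normalization, 8 and 10 with a row median of at least 0.99 (then also 2 for the difference of effects), and, for the averaged effect, 8 with a pseudocount of 0.5, 3 with 0.02 and 3 with array weights. With arrays left out it was 0 to 2 for the averaged effect and 0 in Atf4+/+. Where a group kept 1 array, its spread was taken to be that of the others. The causes were not tested beyond the arrays named.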
